A study of Gallus gallus with 2 samples.

Results

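The 1009 transcripts described here are long non-coding RNAs (lncRNAs) of chicken breast muscle whose entries lie on chromosome 16 or on chromosomes 21 to 28 of build galGal4, out of 21993 listed. They were chosen by the chromosome name alone. This rule uses no measured value, but it was set with earlier results of these data known. Entries on unplaced scaffolds assigned to these chromosomes were kept apart. Chromosomes 21 to 28 held 989 of them and chromosome 16 held 20. By the sizes given in the deposited table, these are the 9 smallest of 28 numbered chromosomes, from 6.80 Mb for chromosome 21 down to 2.19 Mb for chromosome 25 and 0.535 Mb for chromosome 16.

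The comparison was between 2 pooled libraries, 1 of White Recessive Rock hens (WRR, labelled fast-growing, 625.3 ± 12.0 g) and 1 of Xing Hua hens (XH, a native strain labelled slow-growing, 328.5 ± 10.6 g), with the kind of error of these body weights not named. Each pool mixed the RNA of 4 females aged 7 weeks that had an average weight for their strain and shared a diet, and ribosomal RNA was removed before a strand-marked library was made. The deposited table scales its values to a read total per library, which is larger for WRR. In such bulk tissue, fewer cells of a type and less RNA per cell cannot be told apart. With 1 library per strain there was no replicate error, so differences are given as those between 2 libraries, with no p-value. Intervals of read ratios and read shares are exact 95% intervals of read counts (Clopper-Pearson) and cover counting error only. Those of densities are Poisson intervals, and those of median log2 ratios come from order statistics over transcripts. Both of these take transcripts as independent, which neighbouring and overlapping ones are not, and none of the intervals holds replicate error. Reads carried no molecular identifiers, so they do not stand for independent molecules. The table pairs no transcript with a gene, so the labelled tissue could not be checked against muscle markers.

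Birds have many small chromosomes, the microchromosomes, which are rich in genes and in G and C bases. Chicken chromosome 16 carries the major histocompatibility complex, whose proteins present peptides to T cells, and the nucleolus organizer, the repeated genes of ribosomal RNA. Chromosome 25 carries genes of feather keratins, and chromosome 27 the growth hormone gene and a HOX cluster. A lncRNA has no long open reading frame, and in muscle some lncRNAs are known to act on the growth and fusion of muscle precursor cells. None of the listed transcripts could be assigned to one of these genes.

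Listed transcripts were unevenly dense. Between the first and the last listed base, chromosomes 21 to 28 held 24.7 transcripts per Mb (exact 95% Poisson interval 23.2 to 26.3), beside 21.6 on all numbered chromosomes, 26.5 on chromosomes 17 to 20 and 23.3 on chromosomes 11 to 15. Chromosome 21 held 33.0 per Mb (28.8 to 37.6) and chromosome 28 held 30.4 (25.6 to 35.8), whereas chromosomes 22 and 24 held 17.04 (13.2 to 21.6) and 17.5 (14.3 to 21.1). Per Mb of chromosome size, chromosomes 22 and 24 were the 2 sparsest of the 28 numbered chromosomes. Chromosomes 26, 23, 25 and 27 lay between, at 28.04, 26.6, 22.2 and 19.2 per Mb. The short span of chromosome 16 gave 46.3 per Mb with a wide interval of 28.3 to 71.5, or 37.4 per Mb of its size.

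**Figure D1:**
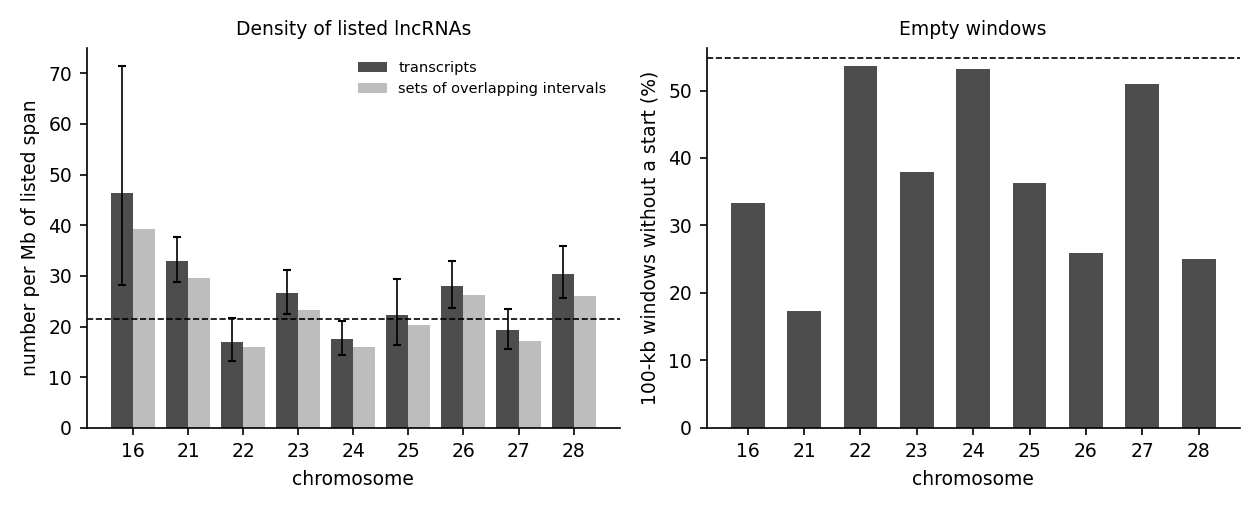
Listed transcripts and sets of overlapping intervals per Mb of listed span (left, bars from 0, error bars are exact 95% Poisson intervals of the transcript number) and the percent of 100-kb windows in which no listed transcript starts (right), by chromosome. Dashed lines give the values over all numbered chromosomes, 21.6 per Mb and 54.9%. Chromosomes 21 and 28 are dense with few empty windows. Chromosomes 22, 24 and 27 have fewer transcripts per Mb than all numbered chromosomes together. Their shares of empty windows, over 50%, still lie below the overall share.

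The transcripts were also unevenly spread within a chromosome. Of the 409 windows of 100 kb on chromosomes 21 to 28, 151 (36.9%) held no transcript start, against 54.9% over all numbered chromosomes. Chromosomes 17 to 20 were close to this set with 40.5%, and chromosomes 11 to 15 had 49.0%. The share was 17.4% on chromosome 21 and 25% on chromosome 28, but 53.7%, 53.1% and 50.9% on chromosomes 22, 24 and 27. The 258 filled windows held a median of 3 transcripts, and 18 windows held 10 or more. Listed intervals covered 3.67% of the sequence of chromosomes 21 to 28, from 1.94% on chromosome 25 to 5.75% on chromosome 21.

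Transcripts were 202 to 10480 bases long, with a median of 855 against 844 for all listed. In 99 of 1009 (9.81%) the genomic interval was longer than the transcript, here called gapped, against 4.84% of all listed transcripts. The share was 6.19% on chromosomes 17 to 20 and 4.75% on chromosomes 11 to 15. Among the 28 numbered chromosomes, chromosomes 16 and 25 had the highest shares of gapped transcripts, 35.0% (7 of 20) and 18.8% (9 of 48), followed by chromosome 22 with 11.8% and chromosome 27 with 10.2%. The longest transcript, 10480 bases at chromosome 23, 1574121 to 1584600, was thinly read. WRR gave 17 reads for it, or 0.172 RPKM (reads per kilobase of transcript, scaled to the library's read total), over 11.3% of its length. XH gave 87 reads or 1.08 RPKM over 24.6%, which is 6.26-fold more RPKM (3.70 to 11.2).

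Most of these transcripts were of low level, and their medians in the 2 libraries were closer to each other than those of the whole list. The 1009 transcripts had 76972 reads in WRR, 0.815% of the library's read total (0.809 to 0.821%), and 69494 reads in XH, 0.901% (0.894 to 0.907%). Per transcript the median was 24 reads in WRR and 23 in XH. The median level was 3.06 RPKM for WRR and 3.67 for XH, while over all listed transcripts it was 2.65 and 4.48. At least 10 RPKM was reached by 169 (16.7%) in WRR and 195 (19.3%) in XH, against 11.2% and 20.7% of all listed. The WRR values of this set thus lay above those of the whole list and the XH values below, by their medians, although no test of this difference can be made. Chromosomes 17 to 20 had nearly the same medians, 3.11 RPKM in WRR and 3.67 in XH.

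By chromosome, the median level in WRR ran from 2.53 RPKM on chromosome 24 to 3.87 RPKM on chromosome 28 and 3.90 RPKM on chromosome 16, and that in XH from 2.27 RPKM on chromosome 27 to 6.29 RPKM on chromosome 16. Chromosomes 27 and 25 had the lowest XH medians of all 28 numbered chromosomes, 2.27 and 2.95 RPKM. In WRR, chromosome 25 had a median above that of all but chromosomes 16 and 28, 3.66 RPKM. Chromosome 22 had medians of 3.20 RPKM for WRR and 4.54 for XH, and chromosome 26 had 3.41 and 4.02. The 2 libraries correlated across the 1009 transcripts with Pearson's r = 0.65 on the log2(RPKM + 0.1) scale and Spearman's rho = 0.62, which describes transcripts that share 2 libraries and is no test. Spearman's rho was lowest on chromosome 27, at 0.33 over 98 transcripts, and highest on chromosome 28, at 0.76 over 144.

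On some chromosomes 1 transcript held a large part of the reads. Over chromosomes 21 to 28 together, the most read one held 6.14% (WRR) and 3.21% (XH). The transcript of highest mean RPKM spans 202 bases of chromosome 27, 4229710 to 4229911. WRR gave 2346 reads for it (1229.9 RPKM) and XH gave 811 (520.4 RPKM), so that the WRR level was 2.36-fold that of XH (2.18 to 2.56). It alone made up 35.1% (WRR) and 15.3% (XH) of the reads of its chromosome. For the 2195-base transcript of chromosome 21, 6516668 to 6518862, the counts were 4595 in WRR (222 RPKM) and 2183 in XH (129 RPKM), or 1.72-fold more in WRR (1.63 to 1.81). Both were higher in WRR, unlike most listed transcripts on the deposited scale.

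On chromosome 25 a gapped transcript of 451 bases, 1298516 to 1299041, was read 1132 times in WRR (266 RPKM) and 279 times in XH (80.2 RPKM). The WRR level was 3.31-fold that of XH (2.91 to 3.79), and 99.8% and 99.6% of its length were covered. The other 2 of the 5 most abundant on chromosomes 21 to 28 were higher in XH as deposited, but not after centring on the median of all. A 359-base gapped one of chromosome 21, 3680768 to 3681299, stood at 127 RPKM in WRR and at 205 in XH, which is 1.61-fold (1.42 to 1.82). The 2134-base one of chromosome 22, 2186562 to 2188695, stood at 136 RPKM in WRR and at 155 in XH, which is 1.13-fold (1.07 to 1.20). It held 36.9% and 36.2% of the reads of its chromosome. The top transcripts of chromosomes 23, 24, 26 and 28 lay at 102, 25.6, 107 and 60.4 RPKM in WRR and at 150.3, 33.6, 123 and 95.3 RPKM in XH. All 4 were thus higher in XH as deposited, by 1.48-fold (1.38 to 1.58), 1.31-fold (1.19 to 1.45), 1.15-fold (1.04 to 1.28) and 1.58-fold (1.41 to 1.76). Each of these 4 changes sign after such centring.

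**Figure D2:**
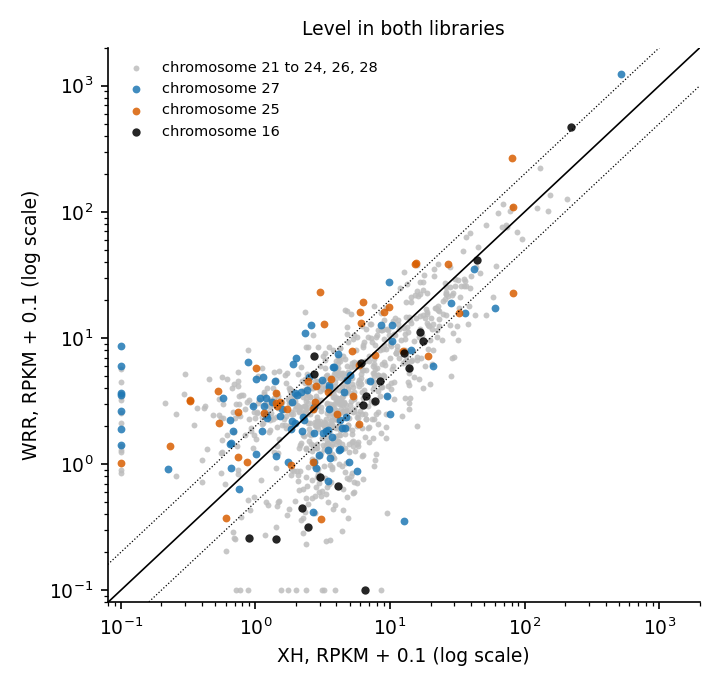
RPKM + 0.1 of each transcript whose higher library reached 0.5 RPKM, XH on the horizontal and WRR on the vertical log axis. The solid line marks equal values, the dotted lines a 2-fold difference, and a dash in the table (0 reads) is drawn at 0.1. Chromosome 25 (orange) lies mostly above the solid line, chromosome 16 (black) mostly below it, and the points of chromosome 27 (blue) with no XH reads stand at the left edge.

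The ratio between strains was measured as log2((WRR + 0.1) / (XH + 0.1)) from RPKM, a scale that understates changes of low transcripts, for the 982 of 1009 transcripts whose higher library reached 0.5 RPKM. Of the 962 on chromosomes 21 to 28, 170 (17.7%) were higher in WRR by 2-fold or more and 259 (26.9%) higher in XH by as much. Over all 21625 transcripts past this filter the shares were 9.45% and 46.9%. The interval of the single read ratio left out 1 for 142 of the 170 and for 238 of the 259. These transcripts were picked by ratios of the same reads, which favours such intervals. No such count was made over all transcripts, so these numbers have no background. The median log2 ratio was -0.25 (95% interval from order statistics -0.33 to -0.13) beside -0.92 for all, and it turned positive when centred on the latter (0.67) or scaled to the sum of listed reads (0.072). Of the transcripts past 2-fold, those higher in WRR made up 39.6% as deposited, 80.3% after centring and 55.2% after scaling to listed reads. As deposited this share was 36.2% on chromosomes 17 to 20, 20.7% on chromosomes 11 to 15 and 16.8% in the whole list. After centring it was 76.2%, 60.5% and 52.3% in the same order.

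Chromosomes 25, 27 and 28 had the highest medians of the 28 numbered chromosomes. On chromosome 25, 21 of 48 transcripts (43.8%) passed 2-fold towards WRR and 6 (12.5%) towards XH, with a median log2 ratio of 0.75 (0.26 to 1.14). On chromosome 27, 29 of 94 (30.9%) were higher in WRR and 20 (21.3%) in XH, with a median of 0.27 (-0.048 to 0.73). On chromosome 28 the median was -0.049 (-0.36 to 0.18), with 25 (18.5%) and 35 (25.9%) transcripts past 2-fold among 135. Chromosome 24 had the lowest median of the 8, -0.54 (-1.06 to -0.23), and 12 (11.4%) against 43 (41.0%) transcripts past 2-fold among 105. These shares were near the 9.45% and 46.9% of all transcripts. Chromosomes 21, 22, 23 and 26 lay between with medians of -0.25, -0.40, -0.34 and -0.35, and the intervals of all these 4 overlapped. After centring, the 8 medians ran from 0.37 on chromosome 24 to 1.67 on chromosome 25.

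Summed reads gave a partly different picture, and single abundant transcripts moved it. Reads per library total were 1.55-fold higher in WRR on chromosome 25 (1.47 to 1.64), and 1.25-fold (1.18 to 1.34) without the abundant gapped transcript named above. On chromosome 27 the summed ratio was 1.03 (0.991 to 1.06), and 0.786 (0.754 to 0.820) without its 202-base transcript, while the median log2 ratio there was 0.27. On chromosome 24 summed reads were 1.40-fold higher in XH (1.35 to 1.45). Over chromosomes 21 to 28 together they were 1.11-fold higher in XH (1.10 to 1.12), less than the 1.25-fold over the whole list. Without the most read transcript of each, the ratio of WRR over XH was 0.871 (0.862 to 0.881) and 0.720 (0.719 to 0.722). On chromosome 21 the ratio was 0.957 (0.936 to 0.978) with its most read transcript and 0.826 (0.806 to 0.847) without it.

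**Figure D3:**
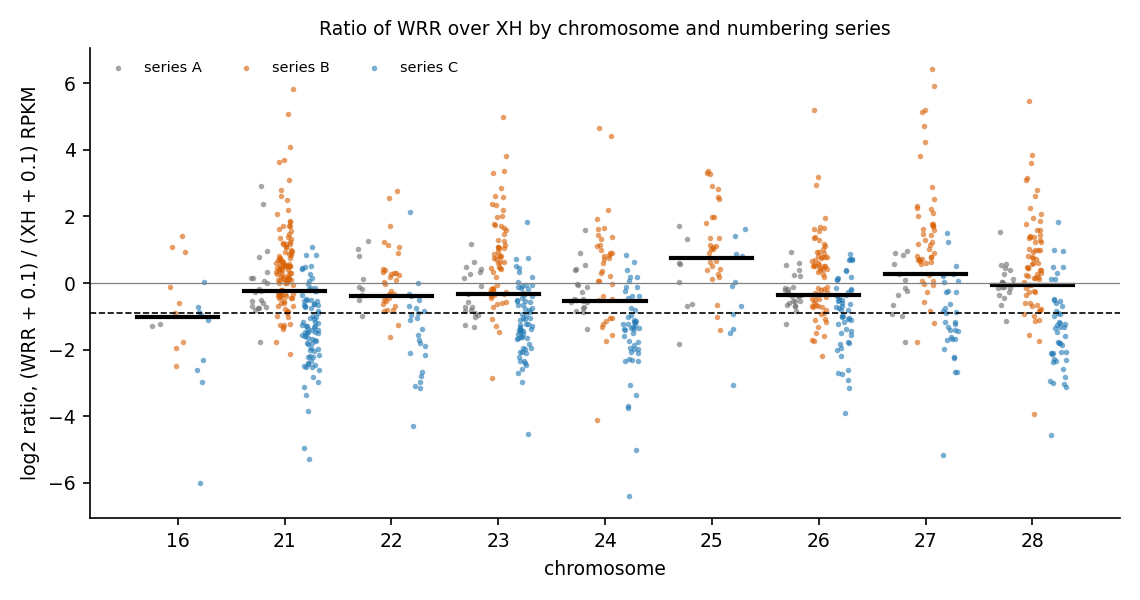
Log2 ratio of WRR over XH of each transcript past the filter, by chromosome, with the 3 numbering series of the identifiers side by side in different colours. Thick bars are medians per chromosome, the dashed line is the median of all transcripts, -0.92, and the thin line is 0. On each of chromosomes 21 to 28 the median of series B (orange) lies above that of series C (blue), and chromosome 25 has the highest bar.

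The serial identifiers fall into 3 runs, and the ratio moved with them. Numbers up to 3658 (A) show no long run on 1 chromosome, numbers 3659 to 11941 (B) run through the chromosomes, and from 11942 on (C) they start over, which is how the limits were found. No source used here says what the runs stand for. On chromosomes 21 to 28 the median was -0.19 in A (135 transcripts), 0.52 in B (458) and -1.21 in C (369), beside -0.56, 0.057 and -1.64 for all transcripts. Of the 170 transcripts at least 2-fold higher in WRR, 153 were of series B, and of the 259 higher in XH, 210 were of series C. The whole list was alike, with 1775 of 2043 in series B and 7971 of 10137 in series C. Series B made up 47.4% of chromosomes 21 to 28 and 35.1% of the whole list, and series C 38.8% and 48.3%, so the pooled medians carry this make-up. The order of chromosomes was in part the same within series. In B, chromosomes 27 and 25 had the highest medians, 1.19 (0.73 to 1.71) and 1.09 (0.51 to 1.98), and chromosome 22 the lowest, 0.029 (-0.39 to 0.32). In C, chromosome 25 stood at -0.092 over only 11 transcripts (-1.50 to 1.40), and chromosome 27 at -1.17 (-1.46 to -0.28), between chromosome 26 at -0.74 and chromosome 22 at -1.38.

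Among transcripts with at least 20 reads over both libraries, the 2 with the highest ratio on each of chromosomes 21 to 28 had at most 5 reads in XH. On chromosome 28, the 1146-base transcript from 2914418 to 2915563 was read 32 times in WRR (2.96 RPKM) and 1 time in XH (0.113 RPKM), a ratio of 26.1 (4.37 to 1064). A transcript of chromosome 23, 1911682 to 1913348, was read 38 times against 2, 15.5-fold more in WRR (4.01 to 133), but with 34.8% of its length covered in WRR. That from 613539 to 614688 of chromosome 25 was read 33 times against 2, which is 13.5-fold (3.45 to 116). These wide limits leave the size of each difference poorly known. The one with the most reads was of 823 bases on chromosome 26, 3416035 to 3416857. It was read 62 times in WRR (7.98 RPKM), with 95.99% covered, and 5 times in XH (0.788 RPKM), with 46.2% covered, and the WRR level was 10.1-fold that of XH (4.12 to 32.3). On chromosome 25, a gapped 221-base transcript from 121988 to 122449 was read 48 times in WRR and 5 times in XH, which is 7.84-fold (3.14 to 25.2). The highest ratios on chromosomes 22 and 24 were 8.58 (2.10 to 75.5) at chromosome 22, 1176973 to 1177803, and 5.07 (1.95 to 16.7) at chromosome 24, 4064457 to 4065415. All of these were of series B.

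In the other direction, the 1261-base transcript of chromosome 27, 3592744 to 3594004, was read 123 times in XH (12.6 RPKM) and 3 times in WRR (0.252 RPKM), with 94.5% and 17.3% of its length covered. It was 50.2-fold higher in XH (16.8 to 247), the largest difference in that direction among transcripts of chromosomes 21 to 28 with at least 20 reads and reads in both libraries. The last listed transcript of chromosome 23, 5721072 to 5721757, had 50 reads in XH and 2 in WRR, 30.6-fold higher in XH (8.04 to 260), with 49.9% of its length covered in XH. One of chromosome 21, 3211243 to 3212656, had 38 reads against 2, 23.3-fold higher in XH (6.01 to 199). These 3 were of series C and rest on 2 or 3 reads in WRR.

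Narrower counting limits were found for 2 transcripts of chromosome 22. The one at 730085 to 733167 had 10 reads in WRR and 87 in XH, 10.6-fold higher in XH (5.52 to 22.99), and the one at 405895 to 407184 had 6 and 52 reads, 10.6-fold (4.56 to 30.2). On chromosome 25 a 343-base transcript of series A, 575516 to 575858, was read 73 times in WRR (22.5 RPKM) and 215 times in XH (81.3 RPKM). It was 3.61-fold higher in XH (2.75 to 4.77), against the direction of that chromosome. The lowest ratios of chromosomes 24, 26 and 28 had 3 reads in WRR and 19 to 32 in XH, 7.75-fold to 13.1-fold higher in XH.

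A dash in place of a library's values was read as 0 reads, since the smallest listed count was 1. It stood in WRR for 17 of the 1009 transcripts (1.68%), against 2.47% of all listed, and in XH for 28 (2.78%), against 1.35% of all. The balance was thus opposite to that of the whole list, where dashes were more frequent in WRR. It was so on chromosomes 21, 23, 25, 26 and 27, while chromosomes 16, 22, 24 and 28 had more dashes in WRR. Chromosomes 17 to 20 had 21 dashes in WRR and 18 in XH. Series B held 24 of the 28 dashes in XH, and series C 13 of the 17 in WRR. In the whole list these were 254 of 296 and 504 of 544. Chromosome 27 had 10 of the 28 dashes in XH and no dash in WRR, so the balance of the set rested mostly on it. Its dashes in XH were 10.2% of its 98 transcripts, the highest share of all numbered chromosomes. Of these 10, 9 were of series B. In series B of the whole list 254 of 7717 transcripts had a dash in XH.

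Reads behind the dashes were few. Transcripts with a dash in XH had 2 to 35 reads in WRR (median 7.5), and those with a dash in WRR had 1 to 19 reads in XH (median 5). The 435-base transcript of chromosome 27, 1514915 to 1515349, was read 35 times in WRR (8.52 RPKM) and never in XH. Against a floor of 3 reads per library it was 9.53-fold higher in WRR, while the exact lower limit from the counts was 7.35. The transcript at chromosome 21, 2917952 to 2918486, with 28 WRR reads over 89.3% of its length, was 7.63-fold higher against this floor (exact lower limit 5.80). That at chromosome 27, 1692672 to 1693410, with 24 WRR reads over 93.0% of its length, was 6.54-fold higher against it (4.92). Without WRR reads, the transcripts at chromosome 21, 3184779 to 3185428, chromosome 24, 3147947 to 3148207, and chromosome 28, 4619556 to 4620408, had 19, 17 and 15 reads in XH. Against the floor they were 7.75-fold, 6.94-fold and 6.12-fold higher in XH (exact lower limits 5.71, 5.05 and 4.39). No transcript of this set with a dash thus had enough reads to show a difference of 10-fold against the floor.

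Coverage, the percent of a transcript's length with reads, moved with the level. Its median was 85.7% in WRR and 84.7% in XH over the 1009 transcripts, while over the whole list it was 79.9% and 89.5%. On chromosome 25 it was 90.2% in WRR and 68.7% in XH, and on chromosome 27 it was 82.9% and 72.3%. On chromosome 24 the order was the opposite, with 83.2% in WRR and 86.6% in XH. At least 90% was covered in WRR and under 50% in XH for 50 transcripts (4.96%), against 2.08% of all listed. The reverse was found for 33 (3.27%), against 7.27% of all. Chromosomes 17 to 20 were close to these values, with median coverages of 85.2% and 84.9% and shares of 4.29% and 3.22%. Chromosomes 25 and 27 had 5 and 9 of the 50, or 10.4% and 9.18% of their transcripts.

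Entries whose intervals overlap can show the same place measured more than once. Of the 1009 transcripts, 178 (17.6%) had a genomic interval that overlapped another by at least 1 base, against 14.01% of all listed. They formed 74 sets, of which 58 were pairs. Gapped entries may overlap by their intervals without sharing transcribed bases. The library was made with strand marking, but the table gives no strand, so overlapping transcripts of opposite strands cannot be told apart and reads may be divided between entries. In 31 pairs a series B transcript overlapped a series C transcript and both passed the filter. The series B entry had the higher ratio in 30 of the 31, with a median log2 ratio of 0.81 against -1.17 for its partner and a median difference of 1.81. Only 11 of the 31 pairs lay on the same side of 0. In the whole list the corresponding numbers were 474 of 495 pairs and 173 on the same side of 0. The difference between the series was therefore also present between entries with overlapping intervals.

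**Figure D4:**
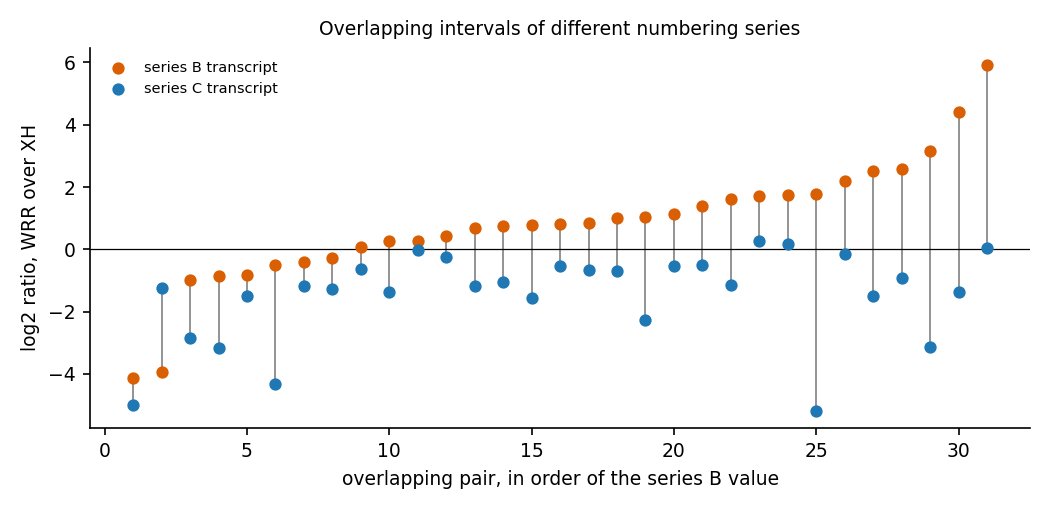
Log2 ratio of WRR over XH for the 31 overlapping pairs of a series B (orange) and a series C (blue) transcript, ordered by the series B value, with a line joining the 2 entries of a pair. The orange point is the higher one in 30 of 31 pairs, and 11 pairs lie on 1 side of 0.

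Single places illustrate this. The transcript 50.2-fold higher in XH on chromosome 27 overlaps by 187 bp a series B entry at 3593818 to 3594760 that had 19 reads in WRR and 4 in XH. On chromosome 28, the series B entry at 2061094 to 2061890 had 6 reads in WRR and none in XH, and the series C entry at 2061118 to 2061950, which shares 773 bp with it, had none in WRR and 5 in XH. At that place the 2 libraries had nearly equal numbers of reads in sum. On chromosome 24, the series B entry at 3556467 to 3556936 had 9 reads and none, and its partner at 3554414 to 3556789 had 19 in WRR and 43 in XH. At these 3 places the 2 entries differed in opposite directions. The exception among the 31 pairs was at chromosome 28, where the series B entry at 3718008 to 3718366 had no WRR read and 4 XH reads, and the series C entry at 3718009 to 3719016 had 15 and 30.

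The densest windows of 100 kb also differed in make-up. On chromosome 21, the window from 3900001 held 18 transcripts, 15 of them of series B, with a median log2 ratio of 0.23 and a range from -1.30 to 3.64. Its lowest was the transcript at 3963425 to 3964209, with 9 reads in WRR and 19 in XH, and its highest the one at 3968673 to 3969409, with 8 WRR reads and a dash in XH. The first 100 kb of chromosome 23 held 18 transcripts as well, 8 of them of series C, with a median of -0.72. There the ratio ran from -2.47 at 2158 to 2857 to 2.85 at 27383 to 27987, where 30 reads in WRR stood against 3 in XH. On chromosome 24, the window from 3300001 held 17 transcripts, 10 of them of series C, and 10 of the 15 past the filter were at least 2-fold higher in XH while none was 2-fold higher in WRR. In series C of the whole list 76.1% were at least 2-fold higher in XH, and over all series 46.9%. Its extremes were -3.68 at 3325133 to 3325515, with 1 and 14 reads, and 0.53 at 3334308 to 3335353, with 41 and 23 reads. Summed reads were 1.24-fold higher in WRR in the window of chromosome 21 (1.07 to 1.44). The ratio of WRR over XH was 0.674 (0.609 to 0.746) in that of chromosome 23 and 0.549 (0.480 to 0.627) in that of chromosome 24.

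Neighbours were compared by the side of the median of all transcripts on which they lay. Of 478 neighbouring pairs at most 10 kb apart that do not overlap, 336 (70.3%) lay on the same side, against 65.2% of 13001 such pairs in the whole list. The share was 80.1% for the 271 pairs of the same series and 57.5% for pairs of different series, against 76.3% and 47.7% in the whole list. The median log2 ratio of this set lay 0.66 above that of all transcripts, which by itself raises such shares. Over all transcripts the medians of series B and C, 0.057 and -1.64, lay on either side of the median of all. This raises the share of same-series pairs wherever they lie. No share was computed for pairs that are not neighbours, so a tendency of neighbours was not tested. Chromosome 24 had the highest share, 78.9% of 57 pairs. Neighbours may be pieces of 1 RNA and are not independent, so these shares are a description.

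Without the entries on unplaced scaffolds, chromosome 16 had the lowest median ratio of the 9, which was not tested. All 20 of its transcripts passed the filter, 10 were at least 2-fold higher in XH and 2 at least 2-fold higher in WRR, and the median log2 ratio was -1.03 (-1.95 to -0.59). These are 50% and 10% of its transcripts, near the 46.9% and 9.45% of the whole list. Of the 20, 4 were above 0 as deposited, where the whole list had 5166 of 21625. This median lay 0.11 below that of all transcripts, whereas each of the other 8 lay above it, but its interval reached both sides of the median of all. Summed reads pointed the other way, 2080 in WRR and 1393 in XH, or 1.22-fold per library total (1.14 to 1.31). This rests on 1 entry. The first transcript, 303 bases in a gapped interval at 94770 to 95258, was read 1341 times in WRR (469 RPKM) and 513 times in XH (219 RPKM), or 2.14-fold more in WRR (1.93 to 2.37). It made up 64.5% of the reads of this chromosome in WRR and 36.8% in XH, and the other 19 together had a ratio of 0.686 (0.621 to 0.757).

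Next to it, 14 transcripts in 11 sets of overlapping intervals were crowded into 22.4 kb, from 115108 to 137506. This cluster was delimited after its positions had been seen. It had 611 reads in WRR and 718 in XH, 1.44-fold higher in XH (1.29 to 1.60), with 12 of 14 ratios below 0, 8 at least 2-fold higher in XH and none 2-fold higher in WRR, beside 46.9% and 9.45% of the whole list. The differences were not uniform along it. The longest, 3208 bases at 115108 to 118315, had 188 and 149 reads and a ratio of 1.03 (0.827 to 1.29). The next one, at 118925 to 119399, had 15 and 24 reads, and the ratio of 0.511 (0.249 to 1.01) did not leave out 1. The transcript at 119614 to 120508 was higher in WRR, 5.09 against 2.61 RPKM, a ratio of 1.95 (1.10 to 3.595).

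From there on every entry of the cluster was lower in WRR as deposited, while those at 127546, 134619 and 136307 lay above 0 when centred on the median of all. The transcripts at 127546 to 128507, 128587 to 129109 and 129279 to 130176 had 4.45, 2.83 and 3.07 RPKM in WRR and 8.35, 6.20 and 7.65 RPKM in XH, and were 1.87-fold (1.18 to 3.02), 2.19-fold (1.09 to 4.55) and 2.50-fold (1.53 to 4.16) higher in XH. The 345-base transcript at 130253 to 130597 had no WRR read and 17 XH reads (6.39 RPKM) over 91.3% of its length. Against a floor of 3 reads it was 6.94-fold higher in XH (exact lower limit 5.05). Both entries that end at 132176 were close to silent, with 1 read each in WRR and 7 and 4 in XH. The 1109-base transcript at 132431 to 133539 had the most reads of those at least 2-fold apart in the cluster, 60 in WRR (5.73 RPKM) against 117 in XH (13.7 RPKM), or 2.39-fold (1.73 to 3.32). Overlapping entries at 133611 to 134684 and 133649 to 134362 had 2 and 4 reads in WRR and 10 and 14 in XH.

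At the end of the cluster the differences were smaller. The transcript at 134619 to 135673 had 93 and 115 reads, 1.51-fold higher in XH (1.14 to 2.01). The last, 340 bases in a gapped interval at 136307 to 137506 and the second most abundant of the chromosome, had 41.1 and 44.2 RPKM and a ratio of 0.930 (0.719 to 1.20), not distinguishable from 1 at this depth.

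Beyond the cluster, 5 transcripts were spread over the rest of chromosome 16. Those at 176665 to 177404 and 192222 to 193204 had 4 and 2 reads in WRR and 23 and 18 in XH, 7.04-fold (2.40 to 28) and 11.02-fold (2.64 to 97.9) higher in XH. Those at 319023 to 319639 and 501382 to 501730 were 1.67-fold (1.11 to 2.52) and 1.86-fold (1.15 to 3.02) higher in XH as deposited, and slightly above 0 relative to the median of all. The last, at 526353 to 527049, was higher in WRR, with 7.14 against 2.60 RPKM and a ratio of 2.74 (1.48 to 5.39). Among transcripts with a position on this chromosome, both outermost ones were thus higher in WRR. So were the one inside the cluster named above and, by less than its counting error, the longest. By series the medians were -1.27 in A (2 transcripts), -0.59 in B (9) and -1.10 in C (9).

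**Figure D5:**
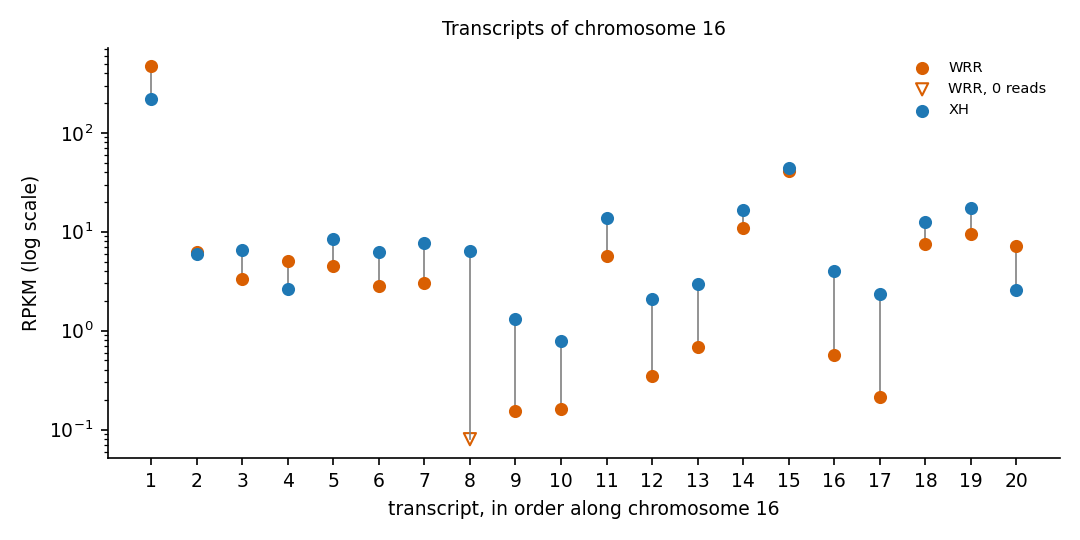
RPKM of the 20 transcripts of chromosome 16 in WRR (orange) and XH (blue), log axis, in their order along the chromosome, with a line joining the 2 values and an open triangle at the lower edge for 0 reads. The first transcript reaches 469 RPKM in WRR, and 16 of the 20 are lower in WRR than in XH as deposited.

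Entries on 9 scaffolds assigned to chromosome 16 without a position went in the opposite direction. These 10 transcripts had 1607 reads in WRR and 551 in XH, and each had a log2 ratio above 0 on the deposited scale, from 0.013 to 2.08 with a median of 1.29. This was not limited to chromosome 16: the few scaffold entries of chromosomes 21, 22, 23, 25 and 28 had medians of 1.59, 1.01, 1.24, 0.998 and 0.886, and those of chromosome 27 of -0.32. Together with its 10 scaffold entries the median of chromosome 16 was -0.35 in place of -1.03. That lay above the -0.92 of all transcripts and the -0.54 of chromosome 24, so it was no longer the lowest of the 9. For chromosomes 21 to 28, adding the 14 transcripts of such scaffolds gave 174 transcripts past 2-fold towards WRR and 260 towards XH.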

How the data were processed

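Per the labels' protocols, ribosomal RNA-depleted, dUTP-marked libraries were made from 1 RNA pool per strain and sequenced on an Illumina HiSeq. The submitters' processing notes name galGal4, TopHat2 2.0.8 and Cufflinks 2.0.2 without roles. No source used here describes the assembly or the non-coding filter. The column headers label the deposited counts as unique reads, taken here as each transcript's uniquely mapped reads. The deposited RPKM is scaled to the header totals, and recomputing it gave all 21449 WRR and 21697 XH values within 0.001%. The deposited coverage is a percent, read as the share of the transcript's length with reads. Deposited starts count from 0 and are printed from 1.

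Members, lists and limits were chosen with earlier results of these data known. Log2 ratios used a pseudocount of 0.1 RPKM and a filter of 0.5 RPKM in the higher library, and were checked on simulated data. The simulation had Poisson counts, changes only in more abundant transcripts and no general shift between libraries. It therefore does not cover ratios of low transcripts or dashes. A fold against a dash used a floor of 3 reads per library. Named transcripts were all of chromosome 16, and on each other chromosome the most abundant and the 2 highest and 2 lowest ratios with at least 20 reads. Added to these were the 5 most abundant, the longest, up to 3 dashes in each direction and the 3 densest windows of 100 kb. Some of them are given only as ranges, and overlapping pairs were chosen after their values were seen. Alternatives covered pseudocount, filter, scaling (with edgeR 4.0.16 TMM factors and DESeq2 1.42.0 size factors), numbering series, scaffolds, single chromosomes, gapped and overlapping entries. Python 3.11.15, SciPy 1.17.1 and R 4.3.3 were used. A gene table of another build was not used, so no neighbouring genes and no sequences are given.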

Additional observations from a re-analysis of the deposited data

How the results depend on the processing

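No paired analysis was possible because the design has a single pool on either side, so that none could be left out. On chromosomes 21 to 28, the 170 transcripts at least 2-fold higher in WRR became 400 when centred on the median of all transcripts, 364 after quantile normalization, 379 with TMM and 391 with DESeq2 size factors. The 259 higher in XH became 98, 95, 104 and 102 in the same order, each among 962 transcripts past the filter. The median log2 ratio of -0.25 turned to 0.67, 0.53, 0.62 and 0.66, and to 0.072 when scaled to listed reads. The medians of chromosomes 22, 23, 24 and 26 turned under the first 4 of these settings, but stayed below 0 when scaled to listed reads (-0.092, -0.016, -0.23 and -0.037). They were 0.52, 0.58, 0.37 and 0.56 centred, 0.30, 0.42, 0.17 and 0.41 after quantile normalization, 0.43, 0.53, 0.31 and 0.50 with TMM, and 0.47, 0.57, 0.35 and 0.54 with size factors. These settings bring the split of the whole list near even by construction. There, 22.3%, 20.2%, 20.985% and 21.6% passed 2-fold towards WRR in the same order. Towards XH the shares were 20.3%, 19.6%, 22.2% and 21.3%. Under these 4 settings the median of chromosome 16 stayed below 0, at -0.11, -0.32, -0.17 and -0.14. With its scaffolds it was -0.35 on the deposited scale, which lay above the -0.92 of all transcripts. The median of chromosome 25, 0.75 as deposited, was above 0 under all 5 scalings. This is no check of it, since each scaling moved the median of all transcripts towards WRR.

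Within numbering series, series A had 9 transcripts past 2-fold in each direction, series B 153 towards WRR and 40 towards XH, and series C 8 and 210. These were out of 135, 458 and 369 transcripts. In the whole list 5.15%, 23.6% and 0.764% of these series passed 2-fold towards WRR, and 26.6%, 15.9% and 76.1% towards XH. On chromosomes 21 to 28 the median was 0.52 in B and -1.21 in C. In B the medians of chromosomes 22, 23, 24 and 26 were 0.029, 0.75, 0.66 and 0.40, and in C that of chromosome 25 was -0.092. The ratio of summed reads of chromosome 16 was 0.686 without its most read transcript and 0.695 in the cluster of 22.4 kb, a setting added after the data were seen. Under the other pseudocounts and filters, without each chromosome in turn, with contiguous transcripts alone or with 1 entry per overlapping set, the median of chromosomes 21 to 28 lay between -0.28 and -0.19. The 66 named transcripts had 651 values under the alternatives, of which 106 moved beyond their counting interval. None that was past 2-fold with an interval leaving out 1 changed sign, but such a change could hardly occur. The scalings moved the median of all transcripts from -0.92 to values between -0.60 and 0, towards WRR and by less than 2-fold. The cause of the differences between numbering series was not tested. The median of 24 reads per transcript in WRR limits what single ratios can show.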
